A study of Rattus norvegicus with 16 samples.

Results

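Cell cycle and DNA replication genes were followed through the ventral prostate of rat offspring, a set of 57 genes taken by name from 33197 gene names in the 2 deposited count tables. They fall into 25 S phase genes, which license, copy and supply DNA synthesis, and 32 mitosis genes, which drive entry into mitosis, chromosome segregation and cytokinesis. The groups were 4 glands of GLLP offspring at postnatal day (PND) 540, 5 glands of CTR offspring at PND540, 3 glands of GLLP offspring at PND21 and 4 glands of CTR offspring at PND21. GLLP dams received a diet with 6% protein during gestation and lactation, and CTR dams a diet with 17% protein. The labels give no strain, no litter and no diet of the offspring after lactation, so p-values measure only the spread between these samples. All RNA came from frozen ventral prostate, a mixed tissue in which fewer cells of a type and less RNA per cell cannot be told apart.

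Androgens maintain the ventral prostate, in which a secretory epithelium is set in fibromuscular stroma. In a cycling cell the Mcm proteins are loaded on DNA as an inactive helicase, which is switched on in S phase, and the nucleotide enzymes supply the fork. The genes of mitosis are switched on later, in G2, and are silent in resting cells. Many S phase promoters carry E2F sites, and many mitosis promoters carry a CHR element (cell cycle genes homology region) beside CCAAT boxes bound by NF-Y.

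Depth per library was 28748604 to 37587255 counts at PND540 and 30529776 to 39161666 counts at PND21. Levels are in CPM (counts over each library's total, adjusted by TMM scaling within its table). The secretory genes Scgb1d2 and Scgb2a1 were present in every library, at no less than 8817 and 1095 CPM. Others were not high throughout. Msmb was at 0 CPM in CTR replicate 3 at PND21, and Pbsn at 0.0344 CPM in CTR replicate 5 at PND540. Luminal markers summed to 11932 to 65984 CPM at PND540 over 7 markers, and to 41957 to 75350.1 CPM at PND21 over 8. The 2 sums cannot be compared, since Sbp, at 17400 to 28541 CPM at PND21, had no PND540 entry. CTR replicate 5 at PND540 stood apart, with a median correlation to the other PND540 libraries of 0.851, against at least 0.956 for each of the others. CTR replicate 1 at PND21 held 0.304% of its counts in mitochondrial genes, against 3.70% to 5.05% in the other PND21 libraries. The 2 ages were counted in separate tables that hold different sets of gene names, so age and table cannot be told apart. Of 19709 names found in both, 18 had 0 counts in every PND21 library and a mean of at least 10 CPM at PND540, and 3 showed the reverse. None of the 57 genes was among them. Such a count finds only names at 0 throughout 1 age, and smaller differences in counting between the tables were not tested.

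All 57 genes had a PND540 entry and 54 a PND21 entry. The transcription factor gene E2f1, the checkpoint kinase gene Chek1 and the cyclin gene Ccnb2 had none at PND21, and no age value is given for them. At PND540, 52 genes passed the filter on low counts, and Cdc6, E2f8, Mybl2, Spc25 and Cenpe did not. Those 5 entered the age comparisons through their PND21 counts, so they had to differ. The other 49 were tested within each age and between the ages, and counts and medians below are over these unless stated.

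Cell cycle genes were lower at PND540 than at PND21 in both diets, with a larger median difference among mitosis genes than among S phase genes. Of 49 genes in GLLP, 44 fell and 1 rose at an adjusted p under 0.05 (edgeR's quasi-likelihood test, Benjamini-Hochberg over all genes), against a background of 17.1% of all tested genes lower and 19.1% higher. In CTR, too, 44 of 49 fell and 1 rose, against a background of 13.2% lower and 17.3% higher. The gene that rose was Kif2c in both diets. The 5 genes that had to differ were all called lower as well, which gives 49 of 54 in each diet. The median log2 fold change (PND540 over PND21) was -4.54 in GLLP and -4.38 in CTR for 28 mitosis genes, and -2.03 in GLLP and -1.85 in CTR for 21 S phase genes, while the median over all tested genes was 0.02 in GLLP and 0.07 in CTR. Every PND540 library lay below every PND21 library for 43 of the 49 genes in GLLP, against 21.9% of all tested genes, and for 44 in CTR, against 19% of all tested genes.

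**Figure D1:**
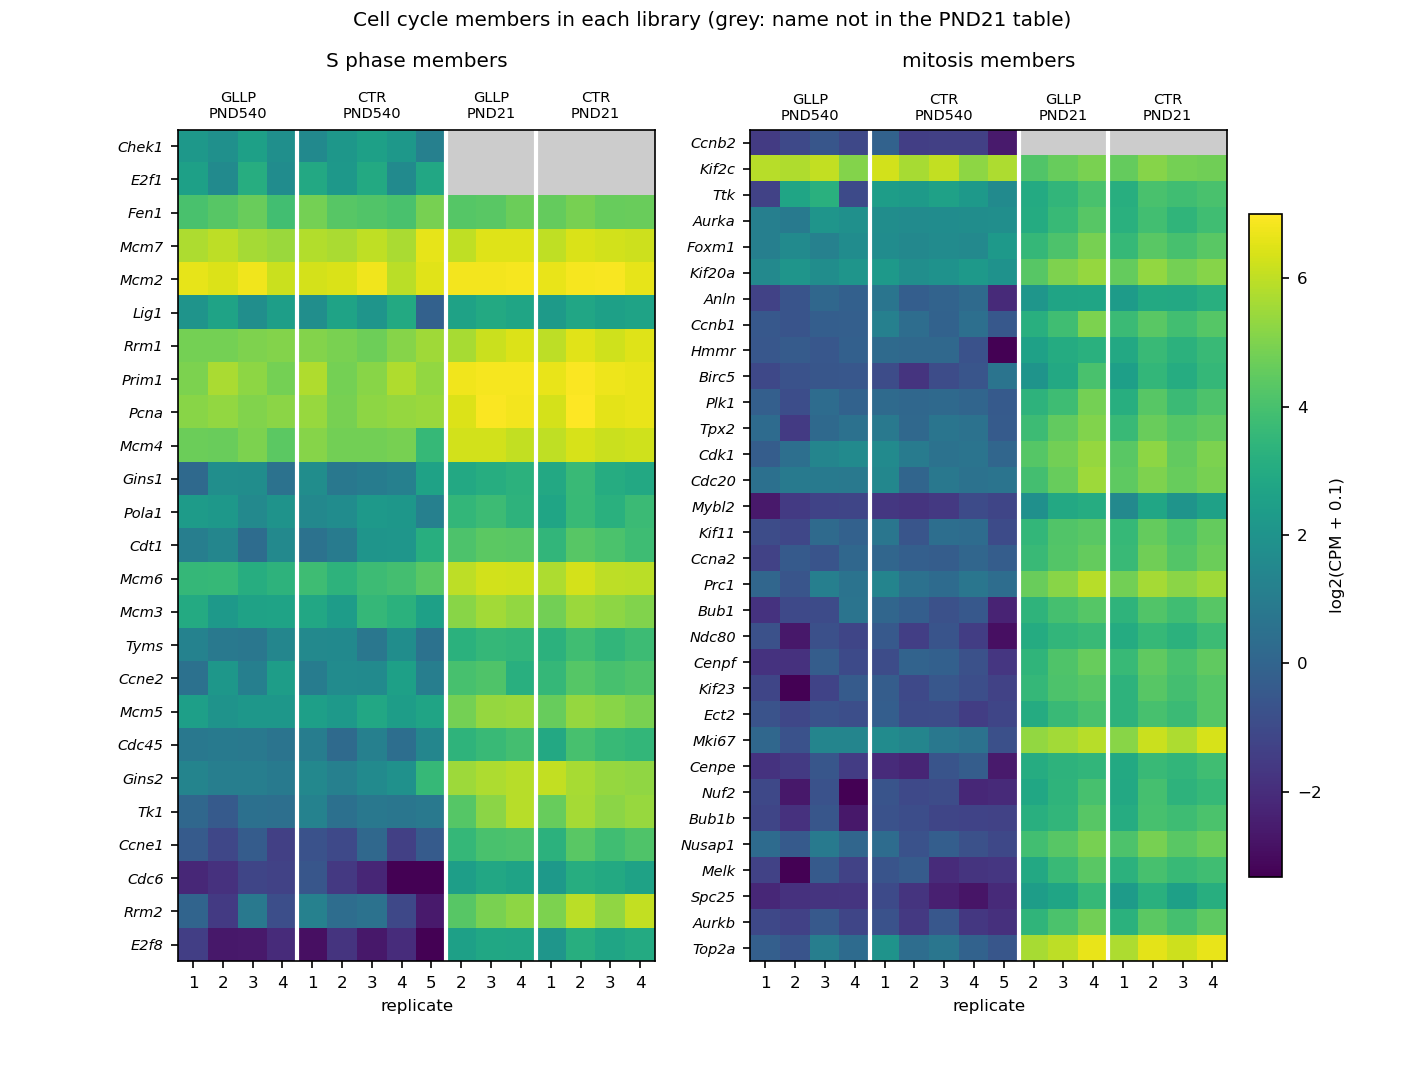
Level of each of the 57 genes in each of the 16 libraries, as log2(CPM + 0.1), with columns grouped by diet and age and genes ordered by their age difference in CTR. Most mitosis genes are dark at PND540 and bright at PND21. In the S phase panel Fen1, Mcm7 and Mcm2, below E2f1 and Chek1 at the top, keep nearly 1 shade. Lig1 varies more and is darkest in CTR replicate 5 at PND540. Grey marks the 3 genes with no PND21 entry, which come first in their panels.

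The chromosome proteins Top2a and Mki67 had the lowest median of the 7 role groups in both diets. Top2a encodes the topoisomerase that untangles replicated chromosomes. In GLLP it had 0.776, 0.538, 2.02 and 1.14 CPM at PND540, against 50.6, 63.1 and 101 CPM at PND21. In CTR it had 3.83, 1.20, 1.54, 0.854 and 0.584 CPM at PND540, against 53.5, 94.6, 73.2 and 102 CPM at PND21. The lowest PND21 gland was thus far above the highest PND540 gland in either diet, with log2 fold changes of -5.93 in GLLP (SE 0.44, adjusted p = 2.4e-05) and -5.58 in CTR (SE 0.55, adjusted p = 6.7e-05). Mki67, the gene of the proliferation antigen Ki-67, had 0.994, 0.508, 2.50 and 2.47 CPM in GLLP glands at PND540, against 40.2, 47.8 and 58.7 CPM in GLLP glands at PND21. In CTR glands its values were 3.04, 2.52, 1.66, 1.37 and 0.481 CPM at PND540, against 35.6, 71.2, 52.8 and 82.7 CPM at PND21. It fell 28.6-fold in GLLP (adjusted p = 0.000129) and 31.4-fold in CTR (adjusted p = 8.4e-05), with no overlap between the ages.

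All 10 mitotic cyclins, kinases and activators tested at both ages fell in both diets, and Mybl2 had to differ. Cdk1, the kinase that starts mitosis, averaged 1.86 ± 1.06 CPM (SD, n = 4) in GLLP glands at PND540, against 29.1 ± 10.9 CPM (SD, n = 3) at PND21. In CTR glands it averaged 1.73 ± 0.777 CPM (SD, n = 5) at PND540, against 28.1 ± 8.03 CPM (SD, n = 4) at PND21. Cdk1 thus fell 14.8-fold in GLLP and 15.3-fold in CTR. Its partners Ccna2 and Ccnb1, cyclins of S phase and mitosis and of mitosis, fell 27.4-fold and 25.3-fold in GLLP, and 23.9-fold and 12.9-fold in CTR. The GLLP fall of Ccnb1 was 16.06-fold without PND21 replicate 4. Ccnb2, with values at PND540 alone, had 0.248, 0.389, 0.569 and 0.369 CPM in GLLP and 0.859, 0.280, 0.286, 0.293 and 0.0687 CPM in CTR. The mitotic kinase genes Plk1 and Aurkb fell 20.7-fold and 42.3-fold in GLLP, and 14.7-fold and 46.1-fold in CTR. Birc5 (survivin, a partner of Aurkb) fell 17.2-fold in GLLP (10.5-fold without PND21 replicate 4) and 14.3-fold in CTR. Cdc20, the activator of the anaphase-promoting complex, fell 16.3-fold in GLLP and 15.8-fold in CTR. The smallest falls of the class were those of Aurka, with log2 fold changes of -2.15 in GLLP and -1.84 in CTR, and of Foxm1, the transcription factor of G2 genes, with -2.81 in GLLP and -2.29 in CTR. Adjusted p lay between 3.15e-05 and 0.00306 in GLLP and between 5.15e-06 and 0.00048 in CTR for the class.

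Among the 6 kinetochore and spindle checkpoint genes tested at both ages, 5 fell in GLLP and 6 in CTR, and Spc25 and Cenpe had to differ. Bub1b, which encodes the checkpoint protein BubR1, fell to 0.342, 0.179, 0.569 and 0.0568 CPM in GLLP glands at PND540, against 8.91, 11.1 and 19.998 CPM at PND21 (log2 fold change -5.47, SE 0.61, adjusted p = 0.00022). In CTR glands it fell to 0.501, 0.448, 0.343, 0.317 and 0.309 CPM at PND540, against 8.20, 16.01, 13.9 and 16.8 CPM at PND21 (log2 fold change -5.07, SE 0.31, adjusted p = 3.97e-06). No PND540 gland reached a PND21 gland. The exception was Ttk, the gene of the checkpoint kinase Mps1. It had 0.311, 6.52, 9.17 and 0.397 CPM in GLLP glands at PND540, against 7.94, 10.9 and 16.4 CPM at PND21, and 5.26, 4.87, 5.91, 4.63 and 2.99 CPM in CTR glands at PND540, against 8.66, 16.5, 14.3 and 16.4 CPM at PND21. GLLP replicates 2 and 3 at PND540 kept levels within or near the PND21 range, while replicates 1 and 4 were far below it. The log2 fold change of Ttk was -1.45 in GLLP (SE 0.98, adjusted p = 0.285), which did not pass, and -1.47 in CTR (SE 0.28, adjusted p = 0.00285), which did. With limma voom and sample quality weights the GLLP value was -3.45 and was called (adjusted p = 0.00472), and without PND540 replicate 3 it was -2.19 (adjusted p = 0.139).

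The spindle motor and cytokinesis genes fell in 9 of 10 cases in both diets, among them Prc1, which bundles the midzone microtubules (29.7-fold in GLLP and 24.6-fold in CTR), and Ect2, the activator of the cytokinetic ring (25.1-fold in GLLP and 31.2-fold in CTR). Kif2c went the other way. It encodes a kinesin that depolymerises microtubules at centromeres. In GLLP glands it had 59.8, 54.1, 66.0 and 33.8 CPM at PND540, against 18.04, 24.2 and 30.7 CPM at PND21. In CTR glands it had 77.3, 50.8, 65.4, 37.9 and 53.1 CPM at PND540, against 23.3, 34.4, 28.4 and 26.8 CPM at PND21. Every PND540 gland was above every PND21 gland of its diet, and Kif2c rose 2.31-fold in GLLP (1.21 on the log2 scale, SE 0.26, adjusted p = 0.00607) and 2.13-fold in CTR (1.09, SE 0.22, adjusted p = 0.00472). The interaction of diet and age for Kif2c was 0.13 (SE 0.35, adjusted p = 0.902). Whether the age tables count Kif2c alike was not tested.

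**Figure D2:**
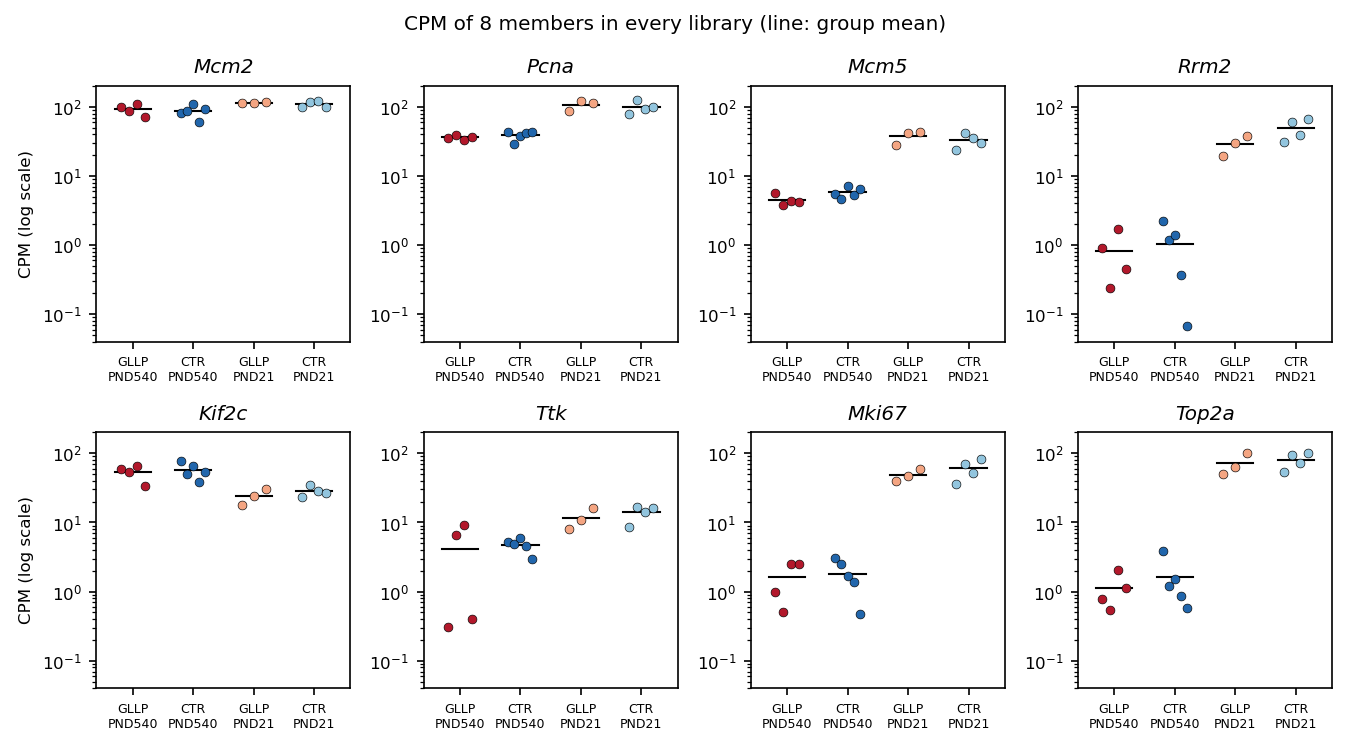
CPM on a log axis of 8 genes in every library, with 1 point per gland and a line at each group mean. Mcm2 is nearly level across the 4 groups, Pcna and Mcm5 step down at PND540, Rrm2, Mki67 and Top2a fall furthest, Ttk splits the GLLP glands at PND540, and Kif2c is higher at PND540.

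S phase genes did not fall together. Of 21 tested at both ages, 18 fell in GLLP and 17 in CTR. Their log2 fold changes ran from -5.11 (Tk1) to -0.13 (Fen1) in GLLP and from -5.46 (Rrm2) to -0.10 (Fen1) in CTR. Within the helicase, Mcm5 had 5.62, 3.83, 4.36 and 4.26 CPM in GLLP glands at PND540, against 28.5, 41.6 and 43.0 CPM at PND21. In CTR glands Mcm5 had 5.51, 4.67, 7.23, 5.32 and 6.46 CPM at PND540, against 23.8, 41.4, 35.6 and 30.3 CPM at PND21. It fell in both diets with no overlap (-2.98 in GLLP, SE 0.22, adjusted p = 2.04e-05, and -2.41 in CTR, SE 0.22, adjusted p = 3.85e-05, on the log2 scale). Mcm3 and Mcm6 fell by similar amounts (-2.67 and -2.69 in GLLP, -2.10 and -2.07 in CTR), and Mcm4 by less (-1.45 in GLLP and -1.40 in CTR).

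Mcm2 and Mcm7, subunits of the same helicase, differed least between the ages within the helicase. Mcm2 had 99.3, 87.9, 108 and 72.1 CPM in GLLP glands at PND540, against 114, 112 and 117 CPM at PND21. In CTR glands it had 81.0, 86.4, 109.5, 60.7 and 92.3 CPM at PND540, against 101, 116, 120.2 and 99.4 CPM at PND21. These levels are scaled within each age's table, and on the common scaling of the age comparison the ages overlapped in both diets. Neither difference passed (-0.24 in GLLP, SE 0.15, adjusted p = 0.253, and -0.26 in CTR, SE 0.18, adjusted p = 0.311). Scaled by library size alone, Mcm2 was called lower in GLLP (-0.43, adjusted p = 0.022, edgeR), where that scaling moved the median of all genes to -0.16. Mcm7 averaged 51.8 ± 7.86 CPM (SD, n = 4) in GLLP glands at PND540, against 81.8 ± 14.6 CPM (SD, n = 3) at PND21, and 64.1 ± 19.96 CPM (SD, n = 5) in CTR glands at PND540, against 75.5 ± 8.22 CPM (SD, n = 4) at PND21. It passed in GLLP (-0.58, SE 0.17, adjusted p = 0.0295) and did not in CTR (-0.16, SE 0.21, adjusted p = 0.597). The GLLP call was lost without PND540 replicate 1, 3 or 4 or PND21 replicate 3 or 4 (adjusted p 0.0585 to 0.127), and the CTR value was called without CTR replicate 5 at PND540 (-0.35, adjusted p = 0.0264). The difference between the diets in that age effect did not pass (interaction -0.41, SE 0.29, adjusted p = 0.738).

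Loading and firing factors fell as well. Cdt1, which loads the helicase, fell to 2.02, 2.54, 1.14 and 2.78 CPM in GLLP glands at PND540, against 17.1, 21.3 and 20.6 CPM at PND21. In CTR glands it fell to 1.40, 1.85, 4.11, 4.24 and 8.69 CPM at PND540, against 11.1, 19.97, 16.7 and 13.8 CPM at PND21, with CTR replicate 5 the highest of the PND540 glands. The log2 fold changes of Cdt1 were -3.12 in GLLP (SE 0.32, adjusted p = 0.000137) and -1.85 in CTR (SE 0.48, adjusted p = 0.0156). Its partner Cdc6, 1 of the 5 genes that had to differ, had 0.124, 0.179, 0.348 and 0.312 CPM in GLLP glands at PND540, against 5.47, 7.27 and 6.28 CPM at PND21. In CTR glands Cdc6 had 0.572, 0.224, 0.114, 0 and 0 CPM at PND540, against 4.62, 8.54, 7.51 and 6.12 CPM at PND21. CTR replicates 4 and 5 held 0 counts of Cdc6, which allows up to 3 counts, or 0.0732 and 0.103 CPM. Gins2, a subunit of the active helicase, fell 24.0-fold in GLLP and 10.1-fold in CTR, or 16.03-fold in CTR without replicate 5 at PND540. Gins1 fell 3.61-fold in GLLP and 2.82-fold in CTR, the CTR call being lost without PND21 replicate 2 (adjusted p = 0.0551).

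Among enzymes of the fork and of nucleotide supply, 7 of 9 fell in both diets, and Fen1 and Lig1 did not pass in either. Pcna, the sliding clamp, averaged 36.3 ± 2.68 CPM (SD, n = 4) in GLLP glands at PND540, against 107 ± 17.4 CPM (SD, n = 3) at PND21. In CTR glands Pcna averaged 39.0 ± 5.73 CPM (SD, n = 5) at PND540, against 100 ± 19.1 CPM (SD, n = 4) at PND21. It fell 2.80-fold in GLLP and 2.42-fold in CTR (adjusted p = 0.000122 in GLLP and 0.000552 in CTR). The 2 subunits of ribonucleotide reductase, which makes deoxyribonucleotides, fell by different amounts. Rrm1, the large subunit, had log2 fold changes of -1.13 in GLLP (SE 0.19) and -1.16 in CTR (SE 0.19). Rrm2, the small subunit made in S phase, had 0.900, 0.239, 1.71 and 0.454 CPM in GLLP glands at PND540, against 19.7, 30.2 and 38.2 CPM at PND21. In CTR glands Rrm2 had 2.22, 1.20, 1.40, 0.366 and 0.0687 CPM at PND540, against 31.5, 60.6, 38.5 and 66.0 CPM at PND21. It fell 34.0-fold in GLLP (adjusted p = 0.000216, or 51.9-fold without PND540 replicate 3) and 44.1-fold in CTR (adjusted p = 0.00043), and the difference between the subunits was not tested. Tk1, the thymidine kinase of S phase, had 0.994, 0.658, 1.30 and 1.25 CPM in GLLP glands at PND540, against 19.5, 36.7 and 59.2 CPM at PND21. In CTR glands Tk1 had 2.29, 1.29, 1.66, 1.56 and 1.72 CPM at PND540, against 24.2, 48.4, 36.3 and 42.9 CPM at PND21. It fell 34.6-fold in GLLP and 21.1-fold in CTR, and thymidylate synthase (Tyms) fell 4.94-fold in GLLP and 4.76-fold in CTR.

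Fen1, which trims Okazaki fragments, averaged 18.8 ± 4.49 CPM (SD, n = 4) in GLLP glands at PND540, against 21.7 ± 3.08 CPM (SD, n = 3) at PND21 (-0.13 on the log2 scale, SE 0.21). In CTR glands it averaged 22.5 ± 6.15 CPM (SD, n = 5) at PND540, against 25.5 ± 2.78 CPM (SD, n = 4) at PND21 (-0.10, SE 0.21). Lig1, the ligase that joins the fragments, had log2 fold changes of -0.44 in GLLP (SE 0.29) and -0.32 in CTR (SE 0.51), and limma voom called the GLLP value (-0.66, adjusted p = 0.0264). Fen1 and Lig1 overlap the genes Tmem258 and Zswim9 in the RefSeq annotation, as 13 of the 57 genes overlap another protein-coding gene. Since the use of strand in counting is not given in the sources used here, reads of such pairs may be shared.

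Both cyclins E, regulators of the G1/S step, fell. Ccne1, cyclin E1, had 0.683, 0.359, 0.696 and 0.284 CPM in GLLP glands at PND540, against 11.7, 16.1 and 17.2 CPM at PND21. In CTR glands Ccne1 had 0.501, 0.392, 1.03, 0.293 and 0.687 CPM at PND540, against 9.78, 20.2, 14.2 and 17.8 CPM at PND21. It fell 28.1-fold in GLLP (adjusted p = 3.06e-05) and 25.2-fold in CTR (adjusted p = 3.47e-05), and Ccne2 fell 4.09-fold in GLLP and 4.77-fold in CTR. E2f8, a repressor among the E2F factors and 1 of the 5 genes that had to differ, had 0.0598 to 0.279 CPM in GLLP glands and 0 to 0.196 CPM in CTR glands at PND540, against 5.69 to 6.92 CPM in GLLP glands and 4.18 to 8.65 CPM in CTR glands at PND21. At PND540 alone, the activator E2f1 had 5.68, 2.99, 8.41 and 3.12 CPM in GLLP and 7.33, 4.48, 7.65, 2.95 and 7.28 CPM in CTR. Chek1 had 4.41, 3.53, 5.75 and 3.46 CPM in GLLP and 2.90, 4.31, 5.74, 4.49 and 2.13 CPM in CTR, so the diets overlapped for both genes.

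**Figure D3:**
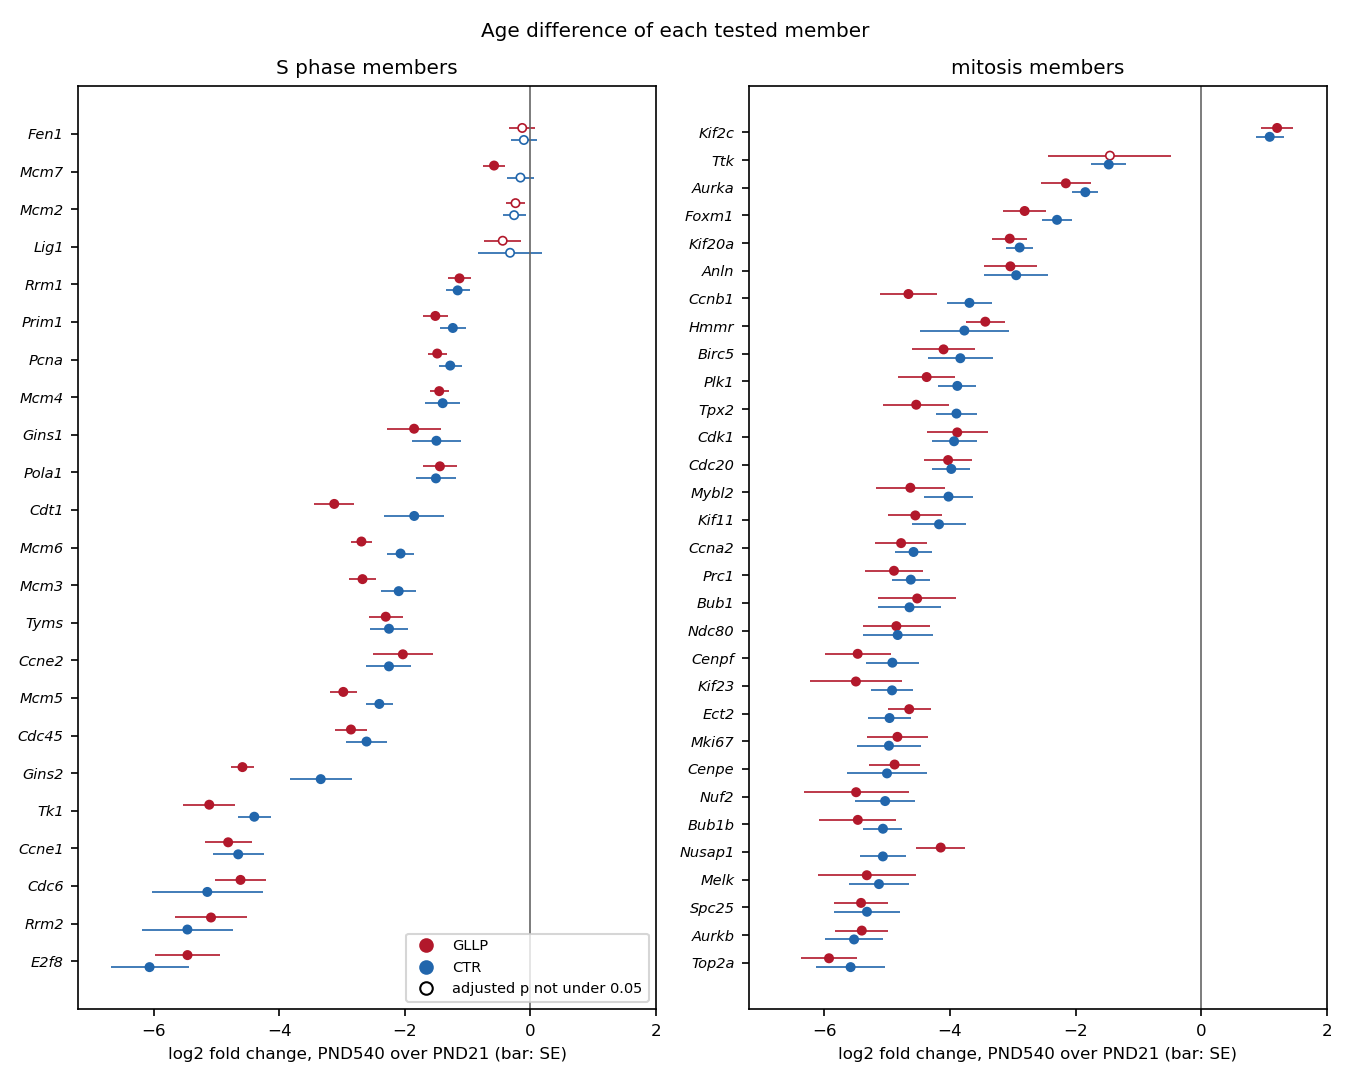
Log2 fold change of PND540 over PND21 for each tested gene, with bars of 1 SE, GLLP in red above CTR in blue, and open points where the adjusted p was not under 0.05. Mitosis genes lie mostly between -3 and -6 with Kif2c right of 0, whereas S phase genes spread from near 0 (Fen1, Mcm7, Mcm2, Lig1) to below -5 (Rrm2, and E2f8, which had to differ).

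Promoter sequences are shown for a few genes picked by hand from this spread. The S phase and mitosis genes differed in the motifs they hold as well as in their falls, and a link was not tested. RefSeq's table for the assembly GRCr8 gave the window of 300 bases, from 250 before to 50 after the start, for 47 of the 57 genes. It gave none for Mcm4, Cdc6, Rrm2, Ccne2, E2f1, E2f8, Ccna2, Aurkb, Foxm1 and Tpx2. On both strands, the CHR was searched as TTTGAA or TTCGAA, the NF-Y box as CCAAT, and E2F sites as GCGCGAAA, GCGGGAAA, GCGCCAAA or GCGGCAAA. Capitals mark every match below, and matches of 1 motif may overlap each other. Large falls of genes without any of these motifs, such as Melk (-5.32 in GLLP and -5.13 in CTR on the log2 scale), are not shown. The large falls of Top2a, Mki67 and Ect2 come first, then the S phase genes Mcm5 and Cdt1, then Mcm2, which did not pass, and last both start sites of Kif2c, which rose.
Top2a: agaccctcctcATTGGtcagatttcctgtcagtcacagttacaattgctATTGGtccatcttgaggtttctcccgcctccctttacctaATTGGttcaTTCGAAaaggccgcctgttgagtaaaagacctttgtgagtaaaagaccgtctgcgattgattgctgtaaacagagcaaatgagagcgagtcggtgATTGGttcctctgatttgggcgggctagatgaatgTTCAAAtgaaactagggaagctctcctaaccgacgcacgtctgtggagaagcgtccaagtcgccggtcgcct
Mki67: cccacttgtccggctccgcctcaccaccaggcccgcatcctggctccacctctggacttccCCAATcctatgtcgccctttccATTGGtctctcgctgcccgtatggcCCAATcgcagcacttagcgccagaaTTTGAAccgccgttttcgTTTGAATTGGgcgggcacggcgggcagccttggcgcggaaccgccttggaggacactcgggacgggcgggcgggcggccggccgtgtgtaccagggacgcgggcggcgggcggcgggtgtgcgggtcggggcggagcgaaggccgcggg
Ect2: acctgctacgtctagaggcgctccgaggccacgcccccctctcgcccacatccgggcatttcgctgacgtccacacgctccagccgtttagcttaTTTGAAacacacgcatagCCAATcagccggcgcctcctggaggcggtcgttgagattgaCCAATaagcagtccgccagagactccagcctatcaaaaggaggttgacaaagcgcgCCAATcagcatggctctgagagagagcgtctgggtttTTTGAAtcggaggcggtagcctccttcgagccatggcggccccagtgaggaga
Mcm5: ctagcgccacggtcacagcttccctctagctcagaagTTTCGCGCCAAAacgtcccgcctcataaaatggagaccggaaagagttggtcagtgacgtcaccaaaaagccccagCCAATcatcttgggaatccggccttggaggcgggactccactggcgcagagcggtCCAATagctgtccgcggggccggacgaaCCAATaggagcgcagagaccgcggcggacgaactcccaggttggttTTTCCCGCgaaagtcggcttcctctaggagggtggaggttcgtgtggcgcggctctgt
Cdt1: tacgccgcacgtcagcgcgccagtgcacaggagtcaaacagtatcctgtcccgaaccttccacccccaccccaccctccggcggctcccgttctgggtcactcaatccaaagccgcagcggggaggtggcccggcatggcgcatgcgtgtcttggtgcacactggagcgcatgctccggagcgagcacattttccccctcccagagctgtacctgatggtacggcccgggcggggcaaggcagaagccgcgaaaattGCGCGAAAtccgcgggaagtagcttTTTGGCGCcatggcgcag
Mcm2: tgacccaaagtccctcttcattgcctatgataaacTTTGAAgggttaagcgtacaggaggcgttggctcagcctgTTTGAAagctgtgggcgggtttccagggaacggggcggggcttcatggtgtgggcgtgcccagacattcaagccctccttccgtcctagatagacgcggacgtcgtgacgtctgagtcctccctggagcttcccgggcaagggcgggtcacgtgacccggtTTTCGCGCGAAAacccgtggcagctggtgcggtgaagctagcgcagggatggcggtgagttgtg
Kif2c start 1: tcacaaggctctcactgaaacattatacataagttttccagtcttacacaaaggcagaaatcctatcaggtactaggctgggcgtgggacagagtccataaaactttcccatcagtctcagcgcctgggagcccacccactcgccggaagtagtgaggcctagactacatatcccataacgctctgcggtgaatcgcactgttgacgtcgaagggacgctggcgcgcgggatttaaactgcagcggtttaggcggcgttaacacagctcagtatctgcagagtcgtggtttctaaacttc
Kif2c start 2: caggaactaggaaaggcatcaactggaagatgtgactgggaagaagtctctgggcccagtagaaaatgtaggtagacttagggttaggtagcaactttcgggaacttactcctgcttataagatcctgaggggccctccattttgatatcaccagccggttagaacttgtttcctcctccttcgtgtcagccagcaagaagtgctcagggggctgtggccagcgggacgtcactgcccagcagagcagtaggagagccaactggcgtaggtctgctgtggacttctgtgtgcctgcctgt
The windows lie at chr10:84473044-84473343 (Top2a, minus strand), chr1:199952544-199952843 (Mki67, minus strand), chr2:111966577-111966876 (Ect2, minus strand), chr19:13488563-13488862 (Mcm5, plus strand), chr19:67528999-67529298 (Cdt1, plus strand), chr4:122918045-122918344 (Mcm2, minus strand), chr5:135899163-135899462 (Kif2c start 1, minus strand) and chr5:135895504-135895803 (Kif2c start 2, minus strand). In Mki67 a CHR and a CCAAT box share 1 base.

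A CHR stood in 19 of 28 mitosis promoters (67.9%), in 3 of 19 S phase promoters (15.8%) and in 21.0% of all 27457 genes of the table. E2F sites stood in 1 of 28 mitosis promoters (Cdk1, 3.57%), in 11 of 19 S phase promoters (57.9%) and in 2.37% of all genes. CCAAT boxes stood in 19 of 28 mitosis promoters (67.9%), in 11 of 19 S phase promoters (57.9%) and in 39.6% of all genes. Mitosis promoters with both a CHR and a CCAAT box numbered 15 (53.6%), against 9.15% of all genes. The 3 S phase genes with a CHR were Mcm2, Mcm7 and Rrm1. Among the S phase genes with a promoter that were tested at both ages, the median log2 fold change of the 10 with an E2F site was -2.08 in GLLP and -1.68 in CTR, and that of the 8 without was -2.19 in GLLP and -1.94 in CTR. For mitosis genes it was -4.65 in GLLP and -4.83 in CTR for the 17 with a CHR, and -4.52 in GLLP and -3.69 in CTR for the 7 without. Neither window of Kif2c held any of the motifs searched, nor did those of Aurka, Bub1, Melk, Mybl2, Ccne1, Fen1 and Tk1. A match is a run of letters, not a shown binding site, and none of these differences was tested.

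Other genes of the pathway were counted in the same fits, from lists that also were chosen with results of these data known. Counts are again over genes tested at both ages. Of all tested genes, 17.1% were lower and 19.1% higher in GLLP, and 13.2% lower and 17.3% higher in CTR. Of 34 other replication genes, 24 fell and 1 rose in GLLP, and 18 fell in CTR. Mcm10, an origin firing factor, fell in both (17.8-fold in GLLP and 14.2-fold in CTR). Others named by p were the polymerase subunit Pole, the fork protection gene Timeless and the histone chaperone Chaf1b in GLLP (-3.47, -2.02 and -3.23 on the log2 scale). In CTR they were the checkpoint adaptor Clspn, the histone chaperone Asf1b and the polymerase alpha subunit Pola2 (-4.77, -4.09 and -1.73). Of 46 other mitosis genes, 38 fell in GLLP and 36 in CTR, and none rose in either. The kinesin gene Kif22 fell 36.5-fold in GLLP and 21.7-fold in CTR, and the kinetochore gene Ska1 58.2-fold in GLLP and 47.0-fold in CTR. Depdc1 fell in both, Arhgap11a in GLLP (log2 fold change -3.33) and the centromere chaperone Hjurp in CTR (-3.31). Clspn, Ska1 and Depdc1 did not pass the filter at PND540, so they had to differ.

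Of 9 G1 cyclins and their partners, 4 fell in GLLP (44.4%) and 3 in CTR (33.3%). Of all tested genes, 17.1% were lower in GLLP and 13.2% in CTR. Ccnd1, cyclin D1, averaged 50.9 ± 20.9 CPM (SD, n = 4) in GLLP glands at PND540, against 187 ± 5.77 CPM (SD, n = 3) at PND21. In CTR glands Ccnd1 averaged 69.2 ± 29.3 CPM (SD, n = 5) at PND540, against 179.9 ± 17.8 CPM (SD, n = 4) at PND21. Its log2 fold change was -1.80 in GLLP and -1.31 in CTR. Skp2, which targets the inhibitor p27 for destruction, fell 8.08-fold in GLLP and 9.81-fold in CTR, and Cdk2 fell 2.71-fold in GLLP and 2.55-fold in CTR. The phosphatase gene Cdc25a fell in GLLP (-0.74, adjusted p = 0.00786) and did not pass in CTR (-0.47, adjusted p = 0.182), but was called there without CTR replicate 5 (-0.71, adjusted p = 0.00123), with limma voom and with library size scaling. The cyclin gene Ccnd2 did not pass in CTR (-1.21, adjusted p = 0.109), but was called without CTR replicate 5 (adjusted p = 0.0143), with limma voom and with DESeq2. In GLLP its value was -0.76, or -1.58 and called without PND540 replicate 4 (adjusted p = 0.00579).

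Of 25 inhibitors and quiescence genes, 6 were higher (24.0%) and 3 lower (12.0%) in GLLP, and 2 were higher (8.00%) and 1 lower (4.00%) in CTR. In CTR both shares were below those of all tested genes, and in GLLP the share higher was near and the share lower below that of all tested genes. Cdkn2b, the gene of the Cdk4 and Cdk6 inhibitor p15, had 21.1, 20.5, 22.0 and 29.8 CPM in GLLP glands at PND540, against 5.05, 4.55 and 6.599 CPM at PND21. In CTR glands Cdkn2b had 33.2, 24.4, 22.9, 40.9 and 25.7 CPM at PND540, against 8.20, 7.33, 6.82 and 6.66 CPM at PND21. It rose 4.57-fold in GLLP (adjusted p = 0.000163) and 4.30-fold in CTR (adjusted p = 0.000108), with every PND540 gland above every PND21 gland. Its relative Cdkn2a (p16 and Arf) had 1.36, 0.615, 0.914, 0.951 and 1.75 CPM in CTR glands at PND540, against 0.0289, 0, 0 and 0.179 CPM at PND21, and was called higher there (adjusted p = 0.00319). It entered through PND540 alone, so it had to differ. In GLLP glands Cdkn2a had 0.559, 0.419, 0.379 and 0.795 CPM at PND540, against 0.193, 0.140 and 0.173 CPM at PND21 (adjusted p = 0.0267), a call lost without PND21 replicate 2, 3 or 4 (adjusted p 0.0724 to 0.124). Cdkn2c (p18) fell 5.40-fold in GLLP and 8.23-fold in CTR. Lin52, a subunit of the DREAM complex that represses cell cycle genes in resting cells, rose 8.21-fold in GLLP and 5.99-fold in CTR. Cdkn1c (p57) fell 4.17-fold in GLLP, and in CTR it was called without replicate 5 at PND540 (-1.08 on the log2 scale, adjusted p = 0.00493).

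Markers of the gland's cell types moved with age too. Summed fibroblast markers were 129 to 499 CPM in GLLP glands and 57.2 to 374 CPM in CTR glands at PND540, against 5101 to 6427 CPM in GLLP glands and 3564 to 5275 CPM in CTR glands at PND21. Of 6 fibroblast markers, 4 fell and 1 rose in GLLP, and 3 fell and 1 rose in CTR. The riser was Col1a2 (log2 fold change 6.06 in GLLP and 5.67 in CTR), at 0.0289 to 0.119 CPM in PND21 glands. The collagen gene Col1a1, at 1561 to 3245 CPM there, fell (-5.53 in GLLP and -5.61 in CTR). Whether the age tables count these 2 genes alike was not tested. At PND21 the sums were mostly Col1a1 and Col3a1. Dcn did not pass in either diet, nor Pdgfra in CTR. Summed smooth muscle markers were 529 to 1337 CPM in GLLP glands and 449.9 to 1384 CPM in CTR glands at PND540, against 3222 to 3711 CPM in GLLP glands and 2951 to 3419 CPM in CTR glands at PND21, and 4 of 5 fell in both diets. Both stromal sums were thus lower in every PND540 gland than in every PND21 gland. Summed T cell markers were 2.56 to 5.85 CPM in GLLP glands and 3.24 to 12.2 CPM in CTR glands at PND540, against 1.49 to 2.94 CPM in GLLP glands and 2.00 to 2.18 CPM in CTR glands at PND21. Of 5 T cell markers, 1 of 3 tested rose in GLLP and 3 of 4 tested in CTR, and of 7 macrophage markers 2 rose in GLLP and 4 in CTR. Summed skeletal muscle markers were 26.3 to 92.02 CPM in GLLP glands and 32.2 to 66.6 CPM in CTR glands at PND540, far below the PND21 levels given with the diet comparison, and all 6 fell in GLLP and 2 of 5 tested in CTR. Of 3 endothelial markers 2 fell in both diets, and of 3 erythroid markers 2 fell in GLLP and 0 in CTR. Of 7 luminal markers 1 rose and 1 fell in GLLP, and 2 rose and 1 fell in CTR. Of 4 basal markers 1 fell in GLLP and 1 rose in CTR, and 1 of 2 B and plasma cell markers rose in both. Some called markers passed the filter on low counts at 1 age alone, so they had to differ. They were Col1a2 and Cd3e in both diets, Cd3d in CTR, and Myh4, Myl1, Tnni2 and Slc4a1 in GLLP. The counts above include them, and stand beside the 17.1% of all tested genes lower and 19.1% higher in GLLP, and 13.2% lower and 17.3% higher in CTR. The part of these shifts in the falls of the cell cycle genes was not tested.

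At PND540 no cell cycle gene passed the test between the diets, and GLLP values lay mostly below CTR values. With edgeR, 0 of the 52 tested genes were called, against 0% of all 14767 tested genes (123 of them had an unadjusted p under 0.05), and DESeq2 and limma voom also called 0 of the 52. At an unadjusted p under 0.05 there was 1 gene. None of the 52 had GLLP and CTR glands that did not overlap, against 0.393% of all tested genes. Negative values numbered 40 of 52, with a median log2 fold change (GLLP over CTR) of -0.21 for S phase genes and -0.21 for mitosis genes, where the median over all tested genes was 0.00. Without CTR replicate 5 those medians were -0.15 and -0.33.

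Gins2 had the smallest p among S phase genes. It had 2.45, 2.03, 2.02 and 1.76 CPM in GLLP glands and 2.72, 2.15, 3.00, 3.61 and 11.9 CPM in CTR glands, with CTR replicate 5 far above the rest and GLLP replicate 1 inside the CTR range (log2 fold change -1.17, SE 0.52, adjusted p = 0.914). Without CTR replicate 5 its log2 fold change was -0.47. Tk1 had a log2 fold change of -0.70 (SE 0.35) and Mcm6 of -0.47 (SE 0.25). Among mitosis genes, Ccnb1 had 0.621, 0.538, 0.759 and 0.766 CPM in GLLP glands and 2.15, 1.20, 0.857, 1.27 and 0.618 CPM in CTR glands. All GLLP glands were below CTR replicates 1 to 4, and CTR replicate 5 lay among them (-0.86, SE 0.43, adjusted p = 0.914). Nusap1, a microtubule-bundling protein gene, had 1.12, 0.658, 1.83 and 0.965 CPM in GLLP glands and 1.14, 0.503, 0.743, 0.488 and 0.378 CPM in CTR glands, where CTR replicates 1 and 3 lay inside the GLLP range (0.81, SE 0.46, adjusted p = 0.914). Foxm1 had a value of -0.33 (SE 0.30). A missed threshold at this spread does not show that the diets are alike.

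At PND21 the diets also overlapped on every cell cycle gene. With edgeR 0 of 54 were called, against 1.11% of all tested genes, and 1 had an unadjusted p under 0.05. DESeq2 called 6.52% of all genes and limma voom 23.2%, and both called 0 of the 54. None of the 54 had non-overlapping groups, against 17.1% of all 14915 tested genes. The median log2 fold change was 0.07 for S phase genes and -0.02 for mitosis genes, and all values lay between -0.74 and 0.38. The median of the mitosis genes was -0.35 without GLLP replicate 4 and 0.21 without GLLP replicate 2.

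Rrm2 had the smallest p, with 19.7, 30.2 and 38.2 CPM in GLLP glands and 31.5, 60.6, 38.5 and 66.0 CPM in CTR glands. GLLP replicates 2 and 3 lay below every CTR gland and GLLP replicate 4 inside the CTR range (-0.74, SE 0.30, unadjusted p = 0.0376, adjusted p = 0.234). Hmmr, which encodes a spindle-associated hyaluronan receptor, had a log2 fold change of -0.46 (SE 0.23), and Anln (anillin, a scaffold of the cytokinetic ring) of -0.33 (SE 0.23). Mki67 stood at 40.2, 47.8 and 58.7 CPM in GLLP glands and 35.6, 71.2, 52.8 and 82.7 CPM in CTR glands, a value of -0.31 (SE 0.27, adjusted p = 0.546). Cdt1 had a value of 0.36 (SE 0.19) and Fen1 of -0.23 (SE 0.13). Neither passed.

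**Figure D4:**
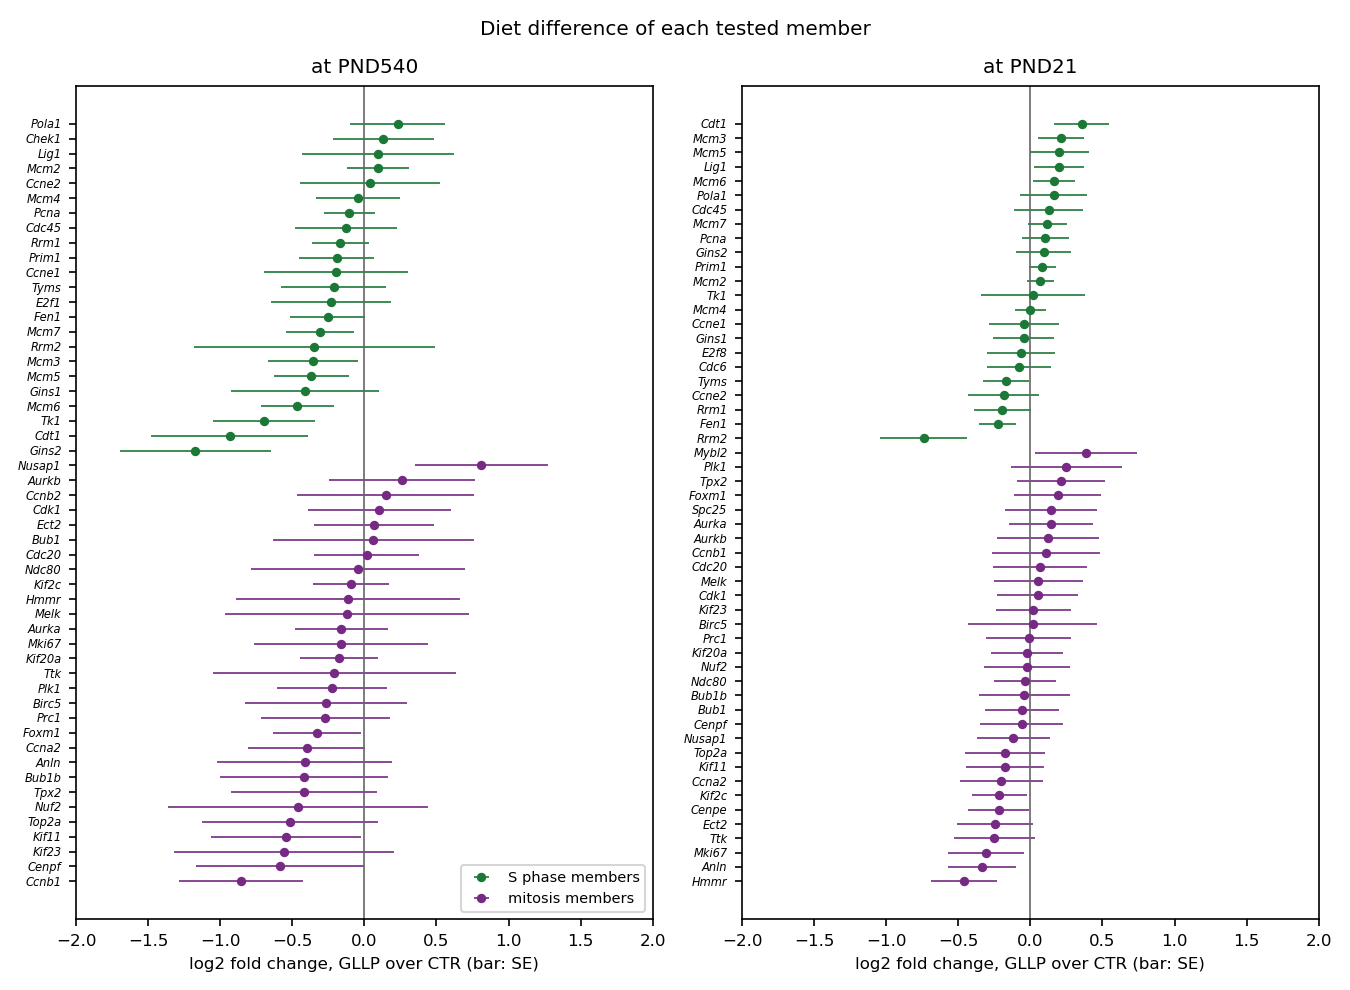
Log2 fold change of GLLP over CTR for each tested gene at PND540 (left) and PND21 (right), with bars of 1 SE, S phase genes in green above mitosis genes in purple. At PND540, 40 of 52 points lie left of 0, with the widest bars among mitosis genes, and at PND21 the points centre on 0 with narrower bars.

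The 1 related gene called at PND21 was the inhibitor gene Cdkn1c, out of 26 inhibitors and quiescence genes tested, against 1.11% of all tested genes. It had 15.6, 21.8 and 24.2 CPM in GLLP glands and 11.5, 9.45, 9.04 and 9.40 CPM in CTR glands, with every GLLP gland higher (log2 fold change 1.06, SE 0.17, adjusted p = 0.0226). The call was lost without CTR replicate 2, 3 or 4 or GLLP replicate 3 (adjusted p 0.0706 to 0.121), and in a joint fit of all 16 libraries (adjusted p = 1.0). The anti-proliferative gene Btg1 (0.34), the p53 ligase gene Mdm2 (-0.30) and Lin52 (-0.51) had groups that did not overlap but did not pass (adjusted p = 0.125, 0.15 and 0.157). Of the 26 genes, 3 had every GLLP gland above every CTR gland and 3 every GLLP gland below. Over all tested genes, 17.1% had groups that did not overlap in either direction, so such a pattern was common. Btg1 was called without GLLP replicate 2 (adjusted p = 0.0418) and with library size scaling (adjusted p = 0.0401). Limma voom called Btg1 higher (adjusted p = 0.0207) and Mdm2, Lin52 and Cdkn2b lower (adjusted p = 0.0446, 0.03 and 0.0117), where it called 23.2% of all genes. No gene of the other replication, other mitosis or G1 cyclin lists was called at PND21, and none of these lists at PND540. All 6 skeletal muscle markers were higher in GLLP at PND21, with summed levels of 861 to 989 CPM in GLLP glands and 317 to 394 CPM in CTR glands. The part of that tissue in the values of Cdkn1c or of the cell cycle genes was not tested.

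Glands of 1 diet differed from each other at PND21. GLLP replicate 4 was the highest of the 7 libraries for 18 of 31 mitosis genes, and GLLP replicate 2 the lowest for 19. Summed over the mitosis genes, the level was 400.4, 573 and 847 CPM in GLLP replicates 2, 3 and 4 and 431, 771, 577 and 759 CPM in CTR replicates 1 to 4. The GLLP glands thus spanned the whole CTR range. For S phase genes, CTR replicate 1 was lowest in 14 of 23 and CTR replicate 2 highest in 13, and CTR replicate 1 is the library with few mitochondrial counts. How often each library was highest or lowest over all tested genes was not counted. The ranks are thus not set apart from shifts of whole libraries.

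No cell cycle gene passed the test of a diet effect that differed with age. With edgeR the interaction called 0 of 54, against 0.0917% of all tested genes, and DESeq2 and limma voom called 0 of the 54 as well. Mcm6 was the 1 gene with an unadjusted p under 0.05 (-0.61, SE 0.29, adjusted p = 0.738). Gins2 (-1.23, SE 0.59) and Cdt1 (-1.26, SE 0.63) had the lowest values, with Gins2 at -0.59 without CTR replicate 5 at PND540. Ccnb1 (-0.95, or -0.31 without GLLP replicate 4 at PND21) and Foxm1 (-0.50) were negative and Nusap1 was positive (0.94). The median was -0.15 for S phase genes and -0.17 for mitosis genes, where a negative value means a lower GLLP over CTR ratio at PND540 than at PND21.

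Glands at PND540 varied more in mitosis genes than in S phase genes. Over the 9 libraries the median SD of log2 CPM was 0.724 for 29 mitosis genes, 0.435 for 23 S phase genes and 0.555 for all tested genes. Without CTR replicate 5 these were 0.628, 0.344 and 0.318, so the median of all genes fell below both. At PND21, over 7 libraries, they were 0.447 for mitosis genes, 0.283 for S phase genes and 0.247 for all genes. The residual biological variation that edgeR estimated within groups ran the same way at PND540. Its median coefficient was 52.5% for mitosis genes, 38.0% for S phase genes and 40.5% for all tested genes, or 45.3%, 32.3% and 26.1% without CTR replicate 5. At PND21 it was 27.0%, 18.9% and 16.5%. The classes were not matched for level, which was lower for most mitosis genes at PND540.

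Ttk varied most (SD 1.69), then Rrm2 (1.36), Hmmr (1.31), Nuf2 (1.16) and Melk (1.13). Counting error alone would give Ttk, at a mean count of 149, an SD of 0.118. For the kinetochore gene Nuf2 and the kinase gene Melk, at mean counts of 9.22 and 11.1, counting alone gives 0.475 and 0.433. Hmmr had 0.590, 0.688, 0.601 and 0.795 CPM in GLLP glands and 1.07, 1.01, 1.03, 0.512 and 0 CPM in CTR glands, and its SD was 0.384 without CTR replicate 5, where it had 0 counts. Values of 0 occurred 7 times in 6 genes at PND540 (Cdc6, E2f8, Melk, Nuf2, Kif23 and Hmmr) and never at PND21, and 3 counts correspond to 0.0732 to 0.107 CPM there. Pcna (0.183) and Rrm1 (0.234) varied least.

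CTR replicate 1 was the highest of the 9 glands for 16 of 29 mitosis genes and the lowest for none. Its mitosis score, the mean log2 CPM of the tested genes less the CTR mean, was 0.618, followed by GLLP replicate 3 at 0.336. Scores of the mitosis genes were -0.467, -0.72, 0.336 and -0.108 in GLLP replicates 1 to 4 and 0.618, 0.0192, 0.144, -0.0786 and -0.702 in CTR replicates 1 to 5, so the diets overlapped. GLLP replicate 2 was lowest for 10 mitosis genes and CTR replicate 5 for 8. For glands other than CTR replicate 5, the like counts over all tested genes were not made. The S phase scores were -0.181, -0.217, -0.0998 and -0.287 in GLLP replicates 1 to 4 and 0.0539, -0.193, 0.158, 0.00754 and -0.0257 in CTR replicates 1 to 5, and they did not order the glands as the mitosis scores did. CTR replicate 5 was highest for 9 and lowest for 6 of the 23 S phase genes. Its value was beyond those of the other 8 glands for 65.2% of S phase genes and 34.5% of mitosis genes, against 70.7% of all tested genes.

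**Figure D5:**
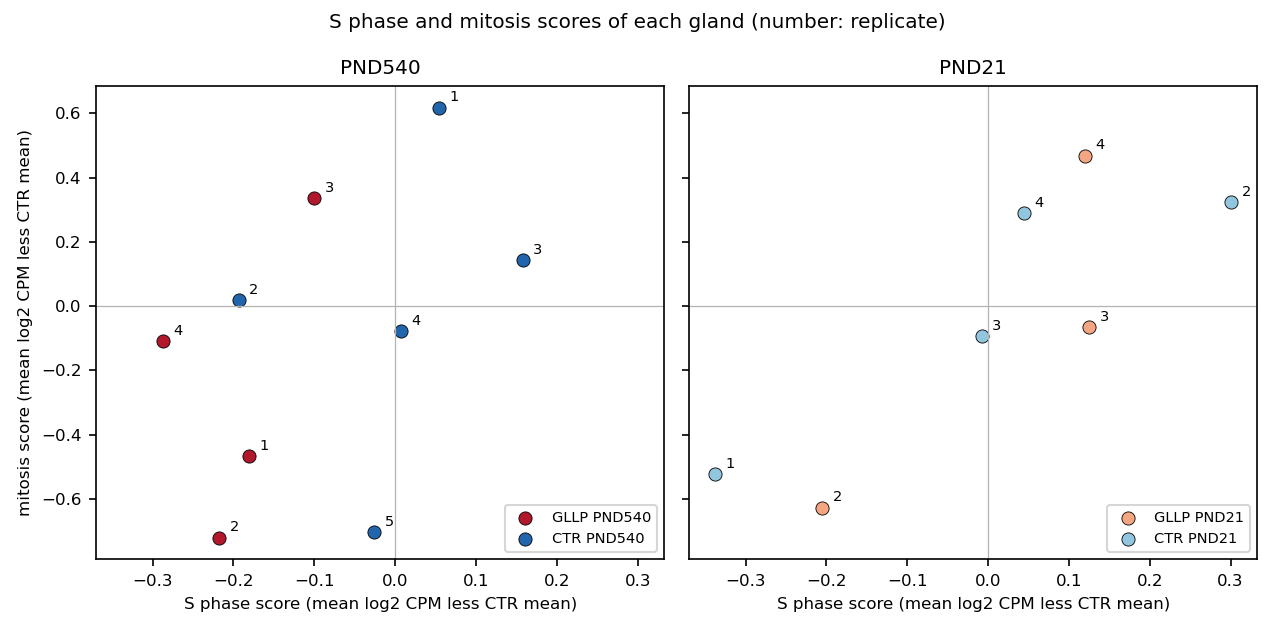
Mitosis score against S phase score of each gland at PND540 (left) and PND21 (right), with the replicate number beside each point and 0 at the CTR mean of that age. At PND540, CTR replicate 1 has the highest mitosis score (0.618) while GLLP replicate 2 and CTR replicate 5 are lowest near -0.7, and at PND21 both scores are low in CTR replicate 1 and GLLP replicate 2.

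Cell type markers differed between the same glands. Summed B and plasma cell markers were 2.14, 24.5, 3.45 and 2.47 CPM in GLLP replicates 1 to 4 and 68.0, 2.80, 2.31, 11.5 and 6.43 CPM in CTR replicates 1 to 5, with CTR replicate 1 highest. Its Jchain, the joining chain of secreted antibodies, was 57.0 CPM. Summed T cell markers were 4.66, 3.499, 2.56 and 5.85 CPM in GLLP and 8.44, 3.24, 4.31, 4.85 and 12.2 CPM in CTR, highest in CTR replicates 5 and 1. GLLP replicate 3, second in mitosis score, was lowest in T cell markers. CTR replicate 1 also had the lowest smooth muscle score (-0.964), a low fibroblast score (-1.29) and a high luminal score (1.24), on the same scale. The part of these cell types in the mitosis genes of CTR replicate 1 was not tested.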

How the data were processed

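Ventral prostate RNA was sequenced by the submitters, and the values used here are the read counts per gene that the authors deposited as 1 table for each age. The submitters' processing notes name STAR, the build Rnor_6.0 and edgeR 3.34.0. No source used here gives the counting program, annotation or strand setting. Each age was fitted within its own table, and the ages were compared over the 19709 names found in both. Genes passed edgeR's filterByExpr, were scaled by TMM and were tested with robust quasi-likelihood fits (edgeR 4.0.16, R 4.3.3), each comparison with its own libraries and all groups together for the interaction. P-values were adjusted by Benjamini-Hochberg over all tested genes, with a threshold of 0.05. The fits were tested on simulated data with 200 changed genes.

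CPM are counts over each library's TMM-scaled total, and log2 CPM used a prior count of 2. Alternatives were RLE and library size scaling, DESeq2 1.42.0, limma 3.58.1 voom with sample quality weights, other count filters, a non-robust dispersion, a replicate block, a joint fit and leaving out each library. The members and lists were chosen with earlier results of these data known. Members named with values were taken for their roles, for the 3 smallest p in each class, for a call against the class, for a missing entry or for the 5 largest SDs at PND540. Companion genes were named for the 4 smallest p in lists with a call. Mcm3, Mcm4, Gins1, Lig1, Ccne2 and Aurka were added after their values were seen.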

Additional observations from a re-analysis of the deposited data

Results flagged for a closer look

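Sets of values were examined for a highest or lowest gland far from the others, where chance gives about 1 in 20. A set was the CPM of 1 gene in 1 group, or the S phase or mitosis scores of 1 group. GLLP at PND21, with 3 glands, was left out. Of 91 sets, 4 had such a gland, which is near the share that chance gives, and all 4 were CPM sets at PND540. Ccnb2 was 0.859 CPM in CTR replicate 1, against 0.0687 to 0.293 CPM in the other CTR glands. Cdc20 was 1.30 CPM in GLLP replicate 1, against 1.70 to 1.77 CPM in the other GLLP glands. Birc5 was 1.48 CPM in CTR replicate 5, against 0.196 to 0.561 CPM in the other CTR glands. Foxm1 was 4.74 CPM in CTR replicate 5, against 2.74 to 3.15 CPM in the other CTR glands.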

How the results depend on the processing

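Of 54 genes, the number called lower with age stayed at 48 to 51 in GLLP and 48 to 50 in CTR over the alternatives run, always with 1 gene higher, and no direction of a called value reversed. Calls between the diets and for the interaction stayed at 0. Median log2 fold changes with age over the 54 ran from -4.88 to -4.36 in GLLP and from -4.76 to -4.40 in CTR for mitosis genes, and from -2.70 to -2.20 in GLLP and from -2.26 to -1.94 in CTR for S phase genes. Diet medians changed sign at PND21, from -0.35 to 0.21 for mitosis genes and from -0.04 to 0.21 for S phase genes, and the cause was not tested. At PND540 they stayed negative, from -0.47 to -0.09 for mitosis genes and from -0.29 to -0.13 for S phase genes. Library size scaling moved the median of all genes between the diets at PND21 by 0.14.

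Same-numbered samples did not deviate together in every pair (correlations of -0.146 to 0.286), and not every sample correlated best with its own number. The labels do not say what the number marks. With so few glands, these correlations cannot show whether it stands for a litter, batch or day. With the replicate block, 48 genes were lower and 1 higher with age in GLLP, 50 lower and 1 higher in CTR, and 0 were called between diets or for the interaction. With the block, calls were lost for Mcm7 (adjusted p = 0.108), Cdc25a (0.0526) and Cdkn2a (0.135) with age in GLLP and for Cdkn1c at PND21 (0.185). Calls were gained in CTR for Mcm7 (0.0419), Cdc25a (0.00394), Cdkn1c (0.00543) and Ccnd2 (0.0346). Over all genes at PND21 the calls were 166, against 27 with the block, 3455 with limma voom, 972 with DESeq2 and 1509 without GLLP replicate 2.

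Depth limits the rarest transcripts at PND540, where 3 counts equal 0.0732 to 0.107 CPM. The separate age tables, with their different sets of gene names, limit every age value, and 3 to 5 glands a group limit the diet comparisons.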
